A study of Sus scrofa with 23 samples.

Results

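The step from recipient oocyte to 1-cell clone was followed in 3 of the 23 porcine libraries of the deposited table. Each was the only library of its condition there, although the paper describes further biological replicates of the oocytes. NT-D-OC held in vitro matured oocytes, the recipients of somatic cell nuclear transfer (SCNT), and NT-D-1C and NT-LW-1C held 1-cell embryos cloned from Duroc and from Laiwu donor cells. The members were the transcripts that differed from NT-D-OC in the same direction in both clone libraries, 201 of the 8603 genes in the table. Of these, 167 genes were higher in both, 34 genes were lower in both, and 0 genes were higher in one and lower in the other.

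The donor nuclei came from cultured ear fibroblasts of 1 boar of each breed, aged 1 year, so each clone group stands for 1 cell line. The recipient oocytes were taken from slaughterhouse ovaries of hybrid sows according to the methods, although GEO lists Duroc as the strain of the oocyte library. They had been stripped of cumulus cells, and for cloning their own chromosomes were removed before 1 fibroblast was fused to each by electric pulses. The in vivo group, used for comparison, held mature oocytes (IV-D-OC) from Duroc sows that were older than the donor boars. Its embryos (IV-D-1C and later stages) came from inseminated Duroc sows, sired by the boar that gave the Duroc donor cells. These embryos were not sexed, and males and females were pooled, whereas all clones were male. No drug treatment was given in the labels. The zona pellucida was removed and several oocytes or embryos were pooled for each library. The donor cell libraries were not analysed here.

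A mature oocyte is arrested in meiosis, makes almost no RNA and carries a store of maternal transcripts whose poly(A) tails are lengthened or shortened in the cytoplasm. At nuclear transfer a whole fibroblast is merged with this cytoplasm, so that its cytoplasmic RNA enters together with its nucleus. Fibroblasts are connective tissue cells known for collagens, other matrix proteins, actin-binding proteins and small calcium-binding proteins of the S100 family. The libraries were primed on poly(A) tails, so a longer tail and more transcript cannot be told apart, nor can more cells of a type and more RNA per cell.

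Levels are in FPKM, fragments per kilobase of gene and 1000000 fragments, which allows genes to be compared per length. A gene was called higher or lower when log2(FPKM + 1) differed by over 1 between the 2 libraries and one of them reached 1 FPKM. Folds are ratios of fragments per depth with a 95% exact binomial interval, which covers counting error only. With 1 library per condition there was no replicate check and no p-value.

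Depth was 18209676 fragments in NT-D-OC, 16152374 in NT-D-1C and 20430720 in NT-LW-1C, within the 14952784 to 22991067 of all libraries. Transcripts known from oocytes marked all 3 libraries, for example the zona pellucida gene ZP3 at 47.9, 37.3 and 23.6 FPKM and the growth factor gene GDF9 at 39.5, 50.7 and 89.3 FPKM. Over all expressed genes the median difference was not 0 but 0.25 in NT-D-1C and 0.20 in NT-LW-1C, and the differences below are to be read against that shift.

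Of 7062 genes expressed in the Duroc comparison, 502 (7.11%) were higher and 110 (1.56%) lower than in oocytes. In the Laiwu comparison 512 (7.29%) of 7025 were higher and 86 (1.22%) lower. Both comparisons used the same oocyte library, so that library's own deviations enter both. Of the 6936 genes expressed in both, 2.41% were higher in both and 0.49% lower in both. Higher genes thus made up 83.1% of the shared calls. They made up 46.6% with median-ratio scaling, which set the median difference to -0.01 and -0.03, and 95.1% with each library rescaled to the same sum. In a plot of one difference against the other, the 3 genes with the largest smaller difference were S100A4, ACTA2 and S100A6. Of the 167 and the 34 genes, 139 and 29 had a symbol, and those without one count in every share but are not described singly.

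**Figure D1:**
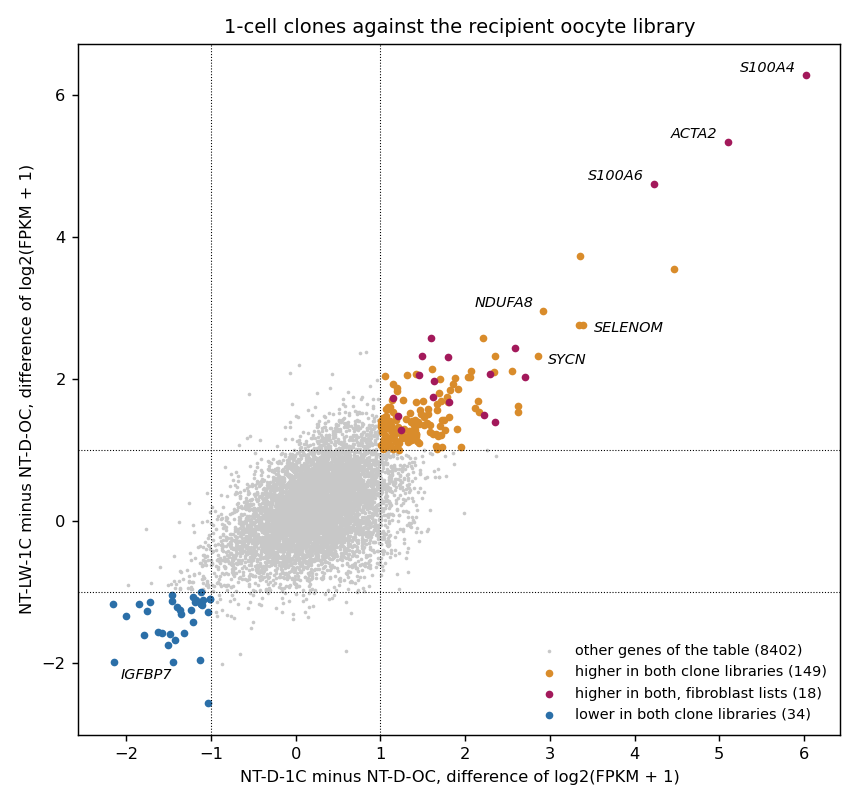
Each point is a gene, with its difference of log2(FPKM + 1) between NT-D-1C and NT-D-OC on the horizontal axis and between NT-LW-1C and NT-D-OC on the vertical axis, and dotted lines mark the limits of 1 and -1. The 167 genes higher in both lie in the upper right, the 34 lower in both in the lower left, and the 18 fibroblast list genes among the higher ones reach up to 6.02 and 6.27 for S100A4.

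Among the 15 gene lists, the fibroblast lists held the most genes called higher in both. They were chosen with earlier results of these data known, so their share may in part follow from that choice. The 3 lists named 81 genes, of which 47 were in the table, and 18 of these 47 (38.3%) were higher in both clone libraries. Of the 47, 34 were expressed in both comparisons, and 2.41% of all genes so expressed were higher in both. One was lower in both. With a minimum of 5 FPKM in place of 1, 7 of the 18 stayed called, and the 11 lost were ANXA1, CAV1, COL1A1, COL3A1, LGALS1, MFAP5, S100A10, SPARC, TPM2, TPM4 and VIM. The median difference of the 47 genes was 0.74 in NT-D-1C and 0.70 in NT-LW-1C, beside 0.25 and 0.20 over all expressed genes. Above the oocyte value in both lay 43 of the 47, a count that has no share of all genes beside it. Of the 18 genes, 14 were under 1 FPKM in the oocytes and 9 had 0 fragments there. Together these 14 genes took 32 fragments in NT-D-OC, 4368 in NT-D-1C and 5958 in NT-LW-1C, or 1.76, 270.4 and 291.6 per 1000000 fragments of depth. They were chosen as low in NT-D-OC and higher in both clone libraries, so a rise between these libraries is built in.

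S100A4, a calcium-binding protein known from motile mesenchymal cells, was the most different gene. It had 0 fragments in the oocytes, 63.9 FPKM in NT-D-1C and 76.1 FPKM in NT-LW-1C. Set against 3 fragments, the number that a count of 0 allows, it was at least 280.0-fold higher in the Duroc and at least 333.6-fold higher in the Laiwu clones, and the lower limits of the interval, which allow for more counting error, were 227.1 and 270.9. It lies at chr4:96088102-96091160 of Sscrofa11.1, close to S100A6 at chr4:96098264-96099686. S100A6, a related calcium-binding protein, went from 0 fragments to 17.7 and 25.7 FPKM, at least 81.9-fold and 119.1-fold higher against 3 fragments, with lower limits of 66.1 and 96.4. S100A10, the partner of annexin A2, rose from 0.268 FPKM to 2.92 and 3.96 FPKM.

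Cytoskeletal genes stood beside them, with 6 of 16 measured list members higher in both and medians of 0.81 and 0.78. ACTA2, the smooth muscle actin of contractile fibroblasts, was at 0.186 FPKM in the oocytes (8 fragments), 39.6 FPKM in NT-D-1C and 46.9 FPKM in NT-LW-1C. This was a 213.2-fold difference (interval 107.9 to 494.8) in the Duroc and a 252.8-fold difference (128.1 to 586.2) in the Laiwu clones. Actin genes are alike in sequence, so reads of related actins may be shared. The gene lies at chr14:100868145-100886732. The intermediate filament gene VIM rose from 0.0264 FPKM, only 2 fragments, to 4.02 and 3.31 FPKM, with intervals of 41.7- to 1263-fold and 34.3- to 1039-fold.

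The tropomyosin genes TPM2 and TPM4, whose proteins wrap actin filaments, were at 0 and 0.107 FPKM in the oocytes. TPM2 reached 2.02 and 4.92 FPKM and TPM4 5.66 and 5.00 FPKM in the Duroc and Laiwu clones. The other members of the group, CALD1 and TMSB10, were already expressed in the oocytes. CALD1, caldesmon, rose from 3.06 to 13.1 and 19.0 FPKM, and TMSB10, a thymosin that binds actin monomers, from 24.0 to 56.5 and 68.0 FPKM.

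Matrix genes were fewer in the table, 11 of 26 listed, and 5 were higher in both, with medians of 1.15 and 1.18. The fibrillar collagen genes COL1A1, COL1A2 and COL3A1 all rose. COL1A2, at chr9:74174484-74210407, was at 1.40 FPKM in the oocytes, 14.7 in NT-D-1C and 8.76 in NT-LW-1C, which is 10.5-fold (8.69 to 12.8) and 6.28-fold (5.18 to 7.66). COL1A1 had 0 fragments in the oocytes and 3.66 and 1.79 FPKM in the clones, and COL3A1 went from 0.0229 to 4.24 and 1.67 FPKM. All 3 collagens were higher in the Duroc than in the Laiwu clones. SPARC, a collagen-binding matrix protein, went from 0 to 2.08 and 2.33 FPKM, and MFAP5, a microfibril protein, from 0 to 1.22 and 2.33 FPKM. FN1, fibronectin, stayed under 0.5 FPKM in all 3 libraries (0.189, 0.460 and 0.478).

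Of 20 measured surface and secreted list members, 7 were higher in both and 1 was lower, with medians of 0.61 and 0.53. Besides the S100 genes they were CAV1 (caveolin), ANXA1 and ANXA5 (annexins, which bind membranes with calcium) and LGALS1 (galectin). CAV1 went from 0 fragments to 1.81 and 3.99 FPKM, ANXA1 from 0 to 1.74 and 3.13 FPKM, and LGALS1 from 0 to 2.51 and 2.17 FPKM. ANXA5 was at 13.4 FPKM in the oocytes and 32.9 and 33.9 FPKM in the clones. The fibroblast surface receptor gene PDGFRA did not move with them, with 0.134, 0.0758 and 0.569 FPKM. The member that went the other way was IGFBP7, a secreted binder of insulin-like growth factors, at 10.1 FPKM in the oocytes and 1.51 and 1.81 FPKM in the clones.

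Promoters of ACTA2, S100A6 and COL1A2 are shown as the fibroblast list genes among the 15 largest differences whose coding strand held TATAA, chosen after the motif search. Each run is the 250 bases before the start of the transcript used, a curated RefSeq transcript where there is one, 5′ to 3′ on the coding strand of Sscrofa11.1, with TATAA in capitals.
ACTA2, chr14:100886708-100886957, minus strand: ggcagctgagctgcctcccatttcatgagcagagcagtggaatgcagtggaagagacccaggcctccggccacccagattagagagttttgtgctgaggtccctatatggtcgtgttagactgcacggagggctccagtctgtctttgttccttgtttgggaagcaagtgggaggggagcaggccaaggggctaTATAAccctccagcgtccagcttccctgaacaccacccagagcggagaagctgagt
S100A6, chr4:96098014-96098263, plus strand: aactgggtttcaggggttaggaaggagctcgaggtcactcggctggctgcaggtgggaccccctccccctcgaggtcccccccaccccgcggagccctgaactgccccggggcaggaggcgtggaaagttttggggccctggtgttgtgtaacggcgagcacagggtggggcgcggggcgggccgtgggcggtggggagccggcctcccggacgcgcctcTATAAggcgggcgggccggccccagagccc
COL1A2, chr9:74174234-74174483, plus strand: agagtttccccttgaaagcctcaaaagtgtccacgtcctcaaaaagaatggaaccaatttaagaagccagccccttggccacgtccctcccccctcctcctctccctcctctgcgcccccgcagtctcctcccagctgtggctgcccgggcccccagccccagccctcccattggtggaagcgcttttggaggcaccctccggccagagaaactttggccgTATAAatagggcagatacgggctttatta
The motif TATAA began 56 bases before the start in ACTA2, 30 in S100A6 and 29 in COL1A2, and was not found on the coding strand of S100A4, COL1A1, TPM2 or CAV1. A longer predicted transcript of ACTA2 starts at base 100886732, inside the run. Among the 18 genes TMSB10 and VIM also held the motif on the coding strand. On either strand it was found in 6 of the 18 fibroblast list promoters (33.3%), in 19 of 129 promoters of the higher genes (14.7%) and in 13.9% of 6874 promoters of the table. These are descriptions of letters, with overlapping matches counted once per promoter.

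Marker lists of other cells were short in the table and gave 0 shared calls, which at a background of 2.41% higher and 0.49% lower says little. Of 27 listed cumulus genes 10 were in the table and 0 were called in both, and their summed level was 170.2 FPKM in NT-D-OC, 137.0 in NT-D-1C and 133.0 in NT-LW-1C. HAS2, the hyaluronan synthase of cumulus cells, was at 0, 0.111 and 0.0661 FPKM, and the growth factor gene EREG was at 0 in all 3. Of 6 measured genes of other skin and blood cells 0 were called, with sums of 25.1, 26.7 and 22.5 FPKM. The only gene of the Y-linked list in the table, EIF1AY, was at 0, 0.0199 and 0.0472 FPKM.

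The same fibroblast list genes were also higher in 1-cell embryos fertilized in vivo, which received no donor cell. Of the 18 genes, 16 were higher in IV-D-1C than in IV-D-OC (88.9%), beside 13.7% of all expressed genes at that step, and the median difference was 2.41. S100A4 had 0 fragments in IV-D-OC and 39.9 FPKM in IV-D-1C, and S100A6 went from 0 to 12.9 FPKM. SPARC reached 8.16, VIM 7.02, CAV1 6.93 and ANXA1 17.6 FPKM in IV-D-1C, each above both clone libraries. ACTA2 was lower there, at 4.66 FPKM. The source of these transcripts in the zygotes and in the clones was not tested. Between clones and zygotes at the 1-cell stage, 2 of the 18 were higher and 4 (22.2%) lower in NT-D-1C, beside 18.5% and 3.44% of all genes, and 2 were higher and 3 (16.7%) lower in NT-LW-1C, beside 20.8% and 4.12%.

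At the next stage the levels were further apart. In the in vivo embryos 14 of the 18 genes fell from the 1-cell to the 2-cell stage (77.8%, beside 24.6% of all genes), and 6 of the 18 were at or above 1 FPKM. In the clones 18 of 18 (NT-D-2C) and 17 of 18 (NT-LW-2C) were at or above 1 FPKM. Of all 8603 genes, 5931 were so in IV-D-2C, 6366 in NT-D-2C and 6897 in NT-LW-2C. The call rule also required all 18 to pass 1 FPKM in both 1-cell clone libraries. In NT-D-2C and NT-LW-2C, 13 and 15 of the 18 lay below their 1-cell value. Their median differences were -0.36 and -0.61, beside -0.53 and -0.07 for all genes. Of the fibroblast list genes expressed at the 2-cell stage, 9 of 18 were higher and 1 lower in NT-D-2C than in IV-D-2C (beside 6.48% and 1.9% of all genes), and 10 of 17 were higher and 2 lower in NT-LW-2C (beside 34.7% and 3.51%). The genes were chosen as high in the 1-cell clones, so an excess over IV-D-2C is in part built in. At the 2-cell stage S100A4 was at 76.8 and 48.2 FPKM in the Duroc and Laiwu clones and at 0.1205 FPKM in the in vivo embryos. ACTA2 was at 30.6, 30.7 and 0.313 FPKM in the same order, and S100A6 at 17.2, 11.2 and 0.741 FPKM. The 14 genes under 1 FPKM in the recipient oocytes took 217.4 and 201.5 fragments per 1000000 in the clones and 56.5 in the in vivo embryos at that stage. At the 4-cell stage the same 14 genes took more again, 435.4 and 384.9 fragments per 1000000 in the Duroc and Laiwu clones and 121.9 in vivo. S100A4 was then at 95.3 and 114.0 FPKM in the clones and had 0 FPKM in vivo.

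**Figure D2:**
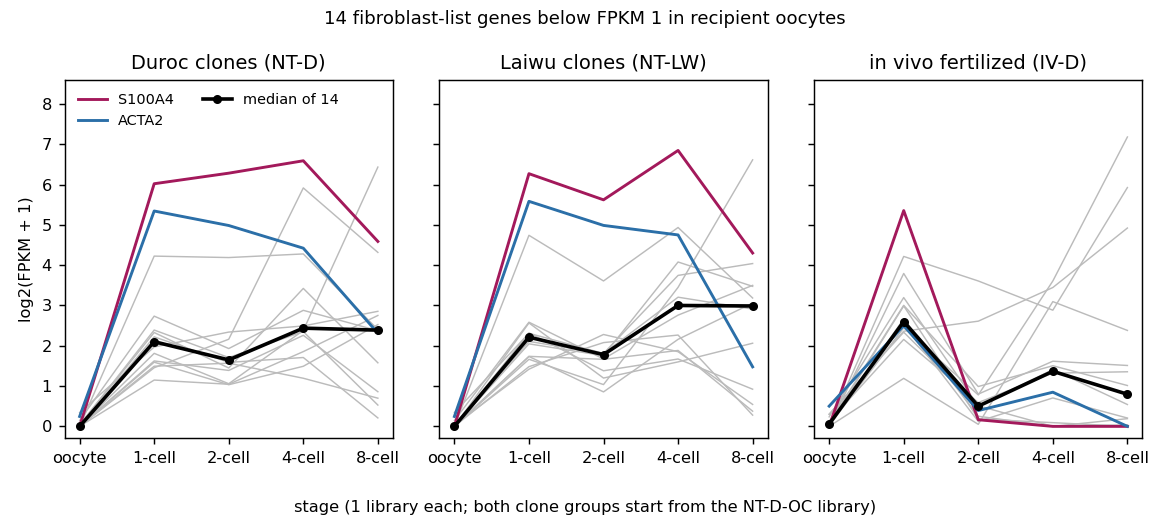
Each grey line is 1 of the 14 fibroblast list genes that were under 1 FPKM in the recipient oocytes, as log2(FPKM + 1) on the vertical axis from oocyte to 8-cell stage on the horizontal axis, with S100A4, ACTA2 and the median drawn in colour and black. All 3 groups rise at the 1-cell stage, and the median then falls from 5.06 to 0.416 FPKM in vivo and from 3.29 to 2.14 and from 3.63 to 2.43 FPKM in the Duroc and Laiwu clones.

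The other 149 genes higher in both mostly stayed within the limits of the call at the same step in vivo. Only 12 of 132 expressed there rose from IV-D-OC to IV-D-1C (9.09%, beside 13.7% of all genes) and 4 were lower (3.03%, beside 7.64%). From IV-D-1C to IV-D-2C, 45 of 140 rose (32.1%, beside 6.59% of all genes). Compared with IV-D-1C, 117 of the 149 were higher in NT-D-1C (78.5%, beside 18.5%) and 123 were higher in NT-LW-1C (82.6%, beside 20.8%). These clone values are the ones that chose the genes, so an excess over another library is in part built in, and nothing is read from it. Of all 167 genes, 50 were higher in IV-D-2C than in IV-D-OC and 10 lower, beside 6.1% and 14.7% of all genes, and 40 of the 50 were not yet higher in IV-D-1C. With IV-D-OC as the start in place of NT-D-OC, 138 of the 167 were higher in NT-D-1C (82.6%, beside 30.1%) and 147 in NT-LW-1C (88.0%, beside 20.1%), and 135 in both (beside 16.0%), which again reuses the clone values of the rule. By the 2-cell stage 3 of the 167 had risen further and 50 had fallen in the Duroc clones (beside 2.45% and 26.5% of all genes), and 4 had risen and 12 had fallen in the Laiwu clones (beside 2.83% and 4.31%).

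NDUFA8, a subunit of respiratory complex I, had the largest smaller difference among those of the 149 with a symbol, and 2 genes without one lay above it. It was at 9.50 FPKM in the recipient oocytes, 78.6 FPKM in NT-D-1C and 80.2 FPKM in NT-LW-1C, 8.28-fold (7.29 to 9.43) and 8.45-fold (7.46 to 9.61) higher. In vivo it was at 3.04 and 6.05 FPKM in oocytes and 1-cell embryos and at 68.35 FPKM only in 2-cell embryos. Of 46 measured nuclear respiratory chain genes 1, NDUFA8, was called higher in both, a share close to the 2.41% of all genes, and the median of the list was 0.35 and 0.33. Of 13 mitochondrially encoded genes 0 were called in both, with medians of 0.12 and -0.32, and 11 of them rose in vivo, beside 13.7% of all genes. NDUFA8, at chr1:262243225-262258186, overlaps MORN5 in the RefSeq annotation, so reads of the 2 genes may not be separate.

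SYCN, the gene of the secretory granule protein syncollin, had the highest level among the 15 largest differences. It was at 46.5 FPKM in the oocytes, 343.7 in NT-D-1C and 234.8 in NT-LW-1C, 7.39-fold (6.66 to 8.22) and 5.05-fold (4.55 to 5.62) higher. In vivo it was at 13.99, 19.8 and 77.9 FPKM from oocyte to 2-cell stage. CDA, cytidine deaminase, went from 2.21 to 12.1 and 12.04 FPKM. SNU13, a protein of spliceosomal and nucleolar particles, went from 3.22 to 16.5 and 16.1 FPKM. The mitochondrial membrane protein gene TMEM69 went from 5.29 to 20.7 and 19.96 FPKM, and GET1, which inserts proteins into the endoplasmic reticulum membrane, from 5.85 to 21.2 and 22.8 FPKM. In vivo these genes were between 1.55 and 5.29 FPKM at the 1-cell stage and between 9.44 and 47.9 FPKM at the 2-cell stage.

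A few of the 15 had other in vivo patterns. SELENOM, a selenoprotein of the endoplasmic reticulum, rose from 0.937 to 19.4 and 12.1 FPKM in the clones and from 0.0667 to 4.71 FPKM in vivo. CDKN1A, the cell cycle inhibitor p21, rose from 2.55 to 11.5 and 11.7 FPKM in the clones and from 1.09 to 4.83 FPKM in vivo. CAPZB, which caps actin filaments, rose from 4.45 to 19.1 and 20.9 FPKM in the clones, with 3.97 and 2.44 FPKM in vivo. PDLIM7, a scaffold at actin fibres, rose from 0.842 to 6.74 and 6.94 FPKM in the clones, with 0.410 and 0.989 FPKM in vivo. The plot of single genes shows the clone values of these genes to the right of both oocyte libraries.

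**Figure D3:**
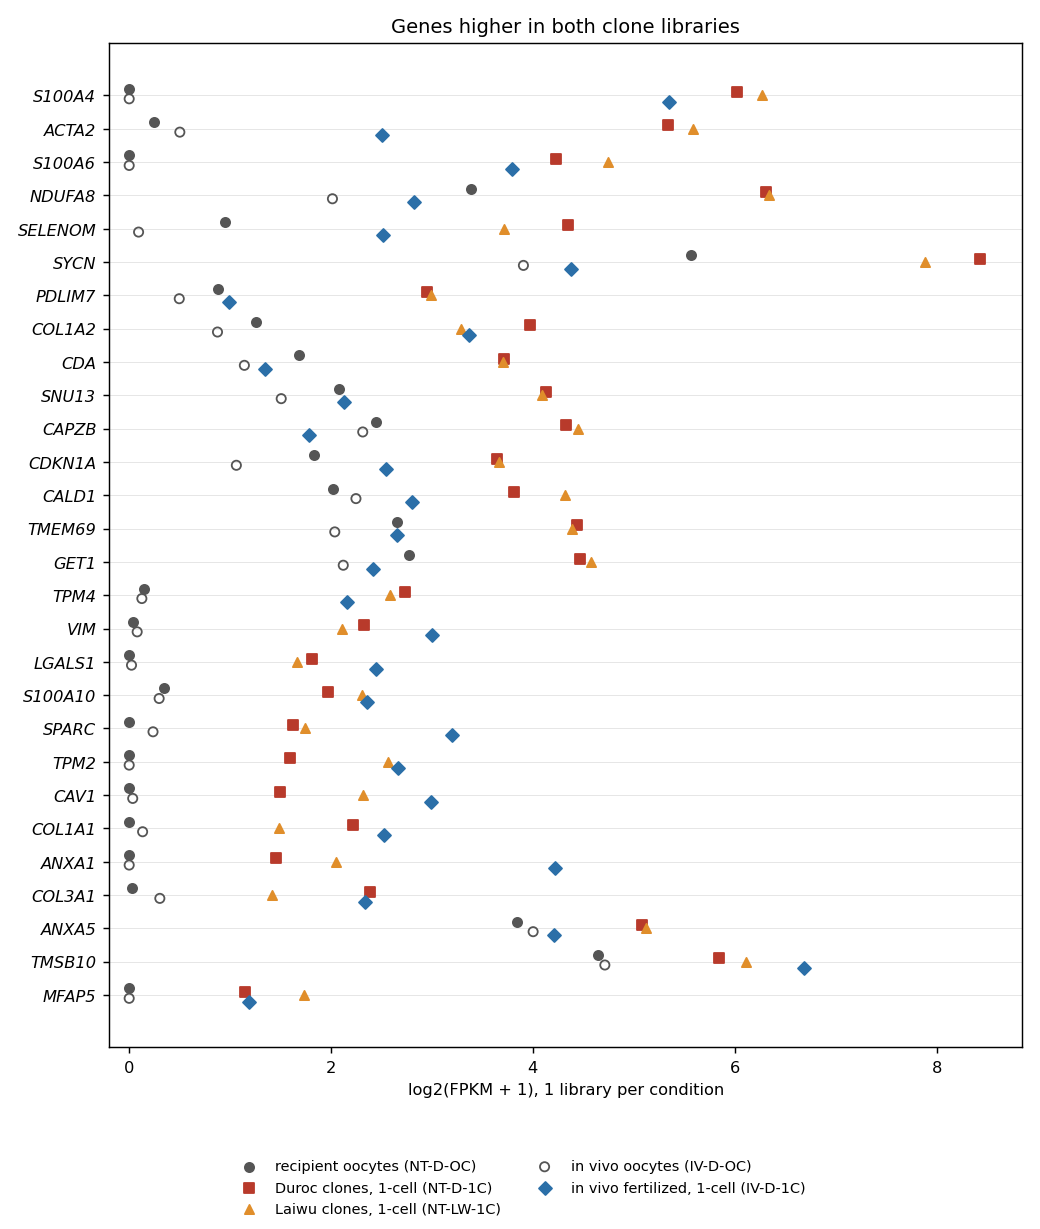
Each row is a gene and each symbol 1 library, placed at log2(FPKM + 1) on the horizontal axis. The upper 15 rows are the largest differences by the naming rule, the rows below are the other fibroblast list genes, and the clone symbols lie to the right of both oocyte libraries in every row, from 1.22 FPKM for MFAP5 to 343.7 FPKM for SYCN.

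Cell cycle and oocyte genes gave some shared calls, to be read beside 2.41% of all genes higher and 0.49% lower in both. Of 27 measured genes of meiotic exit and mitotic entry 3 were higher in both and 1 was lower, with medians of 0.05 and 0.12. CDK1, the kinase that drives entry into mitosis, rose from 7.78 to 25.9 and 37.8 FPKM, and CDC25B, the phosphatase that activates it, from 1.63 to 7.40 and 5.03 FPKM. WEE2, the oocyte kinase that restrains CDK1, rose from 438.4 to 914.6 and 897.3 FPKM, 2.09-fold (2.05 to 2.13) and 2.05-fold (2.01 to 2.09). In vivo WEE2 also rose, from 417.4 to 1046 FPKM, while CDK1 was at 12.35 and 7.71 FPKM. ANAPC10, a subunit of the complex that ends mitosis, was lower, at 16.1 FPKM in the oocytes and 7.48 and 6.96 FPKM in the clones. Its call was lost with the rescaled sums, with IV-D-OC as the start and when the counting interval had to pass 2-fold.

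Among 22 measured oocyte genes, WEE2 and NOBOX, an oocyte transcription factor, were higher in both and 0 were lower in both. NOBOX went from 2.99 to 8.01 and 8.40 FPKM. Of 31 nucleolar genes 1 was higher in both, NCL, nucleolin, at 35.2 FPKM in the oocytes and 74.3 and 147.5 FPKM in the clones. Of 41 ribosomal protein genes 1 was, RPS29, at 1.998, 5.08 and 6.61 FPKM. Both counts are close to the share of all genes. Both gene families have processed copies elsewhere in genomes, so their counts are less sure. With median-ratio scaling WEE2, NOBOX, NCL and RPS29 were no longer called, and NCL and RPS29 also lost their call with IV-D-OC as the start and with the counting interval. The lists of mRNA tail and decay (45 measured genes), immediate early and heat shock (30) and embryonic genome activation (14) had 0 members called in both, where the background share would give about 1 or fewer.

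Transcripts lower in both clones had a higher median level in the oocytes than those higher in both. The 34 genes had a median of 69.9 FPKM in NT-D-OC, 29.7 in NT-D-1C and 28.9 in NT-LW-1C, and 16 of them were at 100 FPKM or more in the oocytes. The median of the 167 higher genes in oocytes was 2.90 FPKM. A gene can be called lower only from above 1 FPKM in the oocytes, while a higher gene can start at 0. The contrast is thus in part set by the call rule, and the 16 genes have no share of all genes beside them. Median differences were of near size, -1.36 and -1.26 for the lower genes and 1.40 and 1.39 for the higher genes. The largest ones were not: 0 of the 34 passed 2 on the log2 scale in both libraries, against 19 of the 167. Of the 167, 13 had 0 fragments in the oocytes.

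FLAD1, which makes the cofactor FAD, had the highest level of the 15 named, at 1446 FPKM in the oocytes and 468.9 and 486.2 FPKM in the clones. This was 3.08 and 2.97 times lower, with ratios of 0.324 (0.320 to 0.328) and 0.336 (0.332 to 0.340). TAF9, a subunit of the general transcription factor TFIID, fell from 930.2 to 345.3 and 289.6 FPKM. Its locus, chr16:47494841-47499568, overlaps AK6, so reads of the 2 genes may not be separate. ARL15, a small GTPase, fell from 775.5 to 228.8 and 319.3 FPKM. LSM5, a ring protein of RNA decay and splicing, fell from 188.9 to 54.2 and 61.1 FPKM, and CETN3, a centrin of centrosomes, from 161.0 to 55.8 and 47.0 FPKM.

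The others of the 15 were at 8.23 to 72.2 FPKM in the oocytes. CLK1, a kinase of splicing factors, fell from 8.23 to 2.11 and 2.08 FPKM, and MED30, a subunit of Mediator, from 32.9 to 12.3 and 12.7 FPKM. RAB6A, a GTPase of Golgi traffic, fell from 15.9 to 5.04 and 4.61 FPKM, and MOBKL3, a partner of protein phosphatases, from 72.2 to 30.7 and 26.3 FPKM. HSCB, a chaperone of iron-sulphur cluster assembly, fell from 58.0 to 21.9 and 23.8 FPKM, and MTX2, a mitochondrial import protein, from 49.0 to 14.1 and 21.6 FPKM. DERA, an enzyme of deoxyribose phosphate breakdown, fell from 36.9 to 7.52 and 15.7 FPKM, and STEAP1, a membrane protein, from 27.6 to 11.2 and 10.9 FPKM. MPG, a DNA repair glycosylase, fell from 13.1 to 4.17 and 2.55 FPKM. RefSeq places MPG over part of NPRL3 and IGFBP7 over part of POLR2B, so these reads may be shared too. For IGFBP7 the ratio was 0.150 (0.109 to 0.202) in the Duroc and 0.179 (0.137 to 0.230) in the Laiwu clones.

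**Figure D4:**
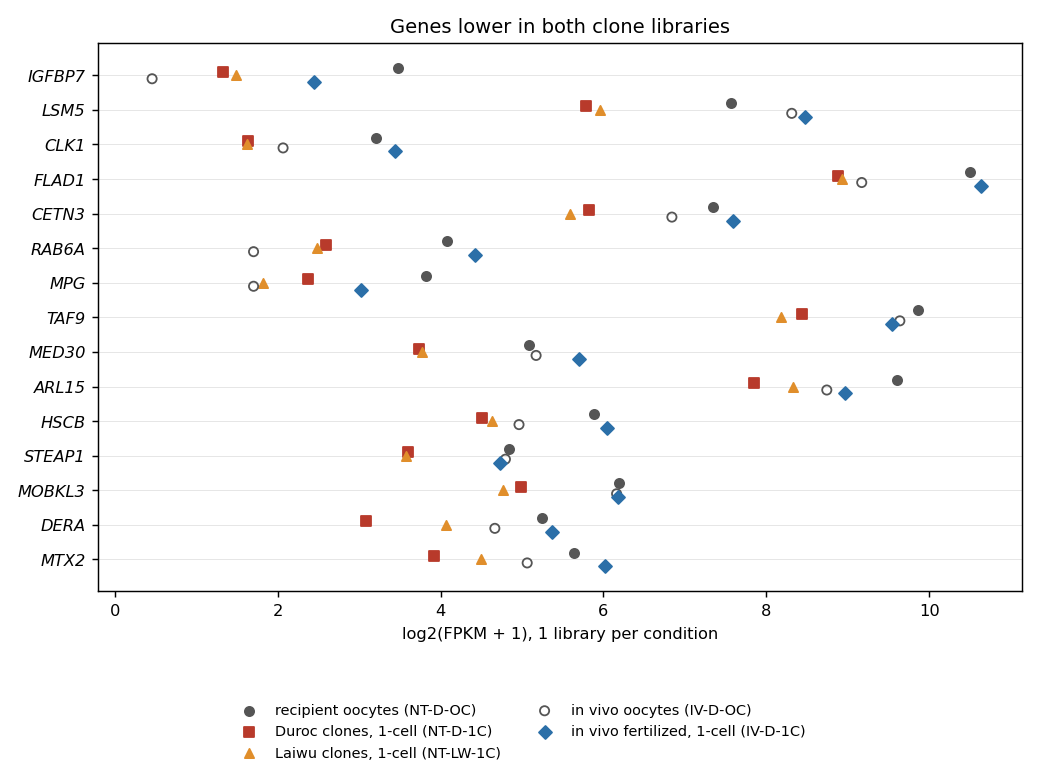
Each row is 1 of the 15 largest shared decreases and each symbol 1 library, placed at log2(FPKM + 1) on the horizontal axis. The clone symbols lie left of the recipient oocyte library in every row, as for FLAD1 at 468.9 and 486.2 against 1446 FPKM, while the in vivo 1-cell library lies right of both clone libraries.

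At the same step in vivo most of the lower genes lay above the oocyte value. Of the 34, 1 was lower in IV-D-1C than in IV-D-OC (2.94%, beside 7.64% of all genes) and 11 were higher (32.4%, beside 13.7% of all genes), with a median difference of 0.66. From IV-D-1C to IV-D-2C 16 of the 34 fell (47.1%, beside 24.6% of all genes). Compared with IV-D-1C, 25 of the 34 were lower in NT-D-1C (73.5%, beside 3.44%) and 23 were lower in NT-LW-1C (67.6%, beside 4.12%), a difference that the choice of genes low in these clone libraries in part fixes. Since the genes were also chosen as high in NT-D-OC, the next values are a description: 14 of the 34 were higher in NT-D-OC than in IV-D-OC (41.2%, beside 13.3% of all genes) and 0 were lower. Against IV-D-OC as the start, 12 of the 34 were lower in NT-D-1C (beside 3.83% of all genes) and 12 in NT-LW-1C (beside 1.28%), 10 of them in both (beside 0.873%). Of the 15 named genes, ARL15, CLK1, DERA, FLAD1, HSCB, IGFBP7, MPG, MTX2 and RAB6A were not called lower in both from that start. RAB6A and MPG were at 15.9 and 13.1 FPKM in NT-D-OC but at 2.26 and 2.26 FPKM in IV-D-OC.

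**Figure D5:**
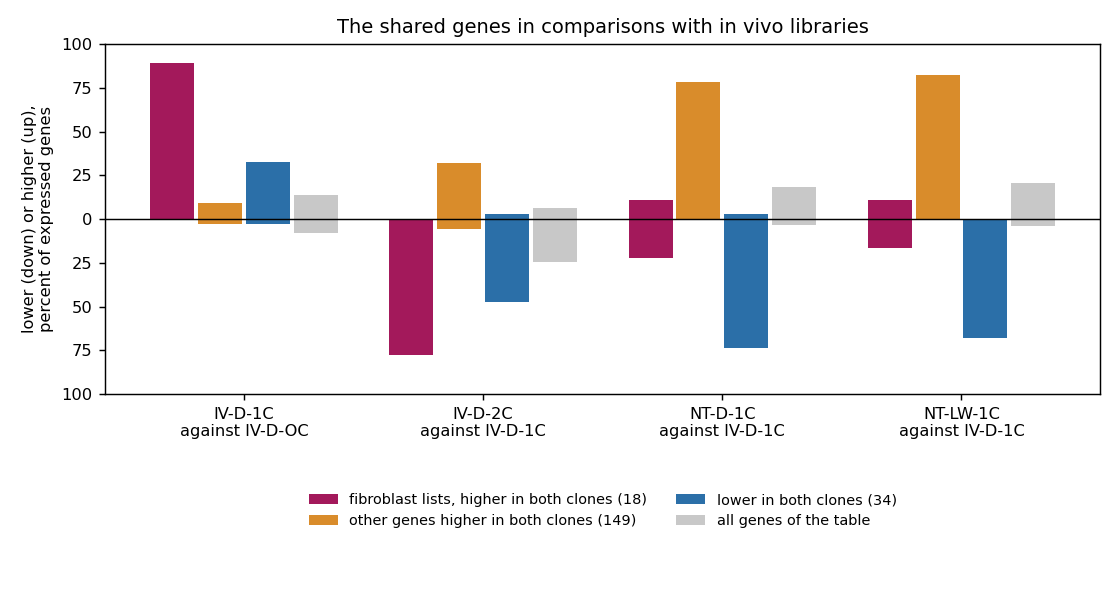
Bars give the percent of expressed genes called higher (up) or lower (down) in 4 comparisons with in vivo libraries, for 18 fibroblast list genes and 149 other genes higher in both clones, 34 genes lower in both, and all genes of the table. The fibroblast list genes rise in vivo at the 1-cell stage (88.9%) and fall at the 2-cell stage (77.8%), and 32.4% of the lower genes rise at the in vivo 1-cell stage. The pairs with clone libraries reuse the values that chose the genes.

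Many of the lower genes rose at a later step. From the 4-cell to the 8-cell stage, when the pig embryo makes its own transcripts on a large scale, 24 of 33 expressed lower genes rose in the NT-D clones (72.7%, beside 31.4% of all genes) and 23 of 34 in the NT-LW clones (67.6%, beside 28.1%). LSM5 went from 7.10 to 339.8 FPKM in the Duroc and from 9.20 to 346.9 FPKM in the Laiwu clones, and MTX2 from 8.43 to 146.2 and from 24.1 to 149.4 FPKM. FLAD1 did not, with 205.6 and 264.8 FPKM in the Duroc and 292.4 and 260.3 FPKM in the Laiwu clones.

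The 3′ untranslated regions of the lower genes differed in make-up from those of the higher genes. Their median GC content was 31.5% (22 genes with a RefSeq 3′ untranslated region of at least 100 bases), against 46.6% in 111 higher genes and 40.2% in 6177 genes of the table. Median lengths were 402 bases, 582 bases and 1099 bases. The cytoplasmic polyadenylation element (CPE), searched as TTTTAT or TTTTAAT on the transcript strand, directs tail lengthening in maturing oocytes. It was found in the last 100 bases in 9 of 22 lower genes (40.9%), 19 of 111 higher genes (17.1%) and 22.0% of the table. The polyadenylation hexamer, searched as AATAAA or ATTAAA in the last 40 bases, was found in 90.9%, 67.6% and 73.6%. Genes at 5 FPKM or more in the oocytes, as the lower genes were, had a median GC content of 37.8%. Among these, the CPE was found in 24.6% and the hexamer in 75.5%. These shares are descriptions of few genes, and a motif rich in A and T is met more often where GC content is low.

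The 30-base stretches below show the element in named genes that fell and in named genes that rose, on the transcript strand from RefSeq Sscrofa11.1, with the CPE and any hexamer in the window in capitals.
TAF9, chr16:47494861-47494890, minus strand: TTTTATcagcctttaagtgtaaaaAATAAA
CLK1, chr15:104553556-104553585, minus strand: aagtaaggaacaTTTTATcagtgattactg
RAB6A, chr9:8137958-8137987, minus strand: ttgactcttttgTTTTATtttgacatggca
WEE2, chr18:8171143-8171172, minus strand: gtaAATAAAggtTTTTATcttgtccaaagc
NCL, chr15:132163497-132163526, minus strand: gaaagcagaatgTTTTATcatgacttttgc
TMEM69, chr6:165704659-165704688, minus strand: agttctcagtctTTTTATaaataacagtca
The first 3 genes were lower and the last 3 higher in both clone libraries. CAV1 and COL1A1, also higher in both, held the element too and are not shown. The element ended 44, 48 and 41 bases before the transcript end in TAF9, CLK1 and RAB6A, and 22, 56 and 72 bases before it in WEE2, NCL and TMEM69.

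Near the limit of the call, NUP205, EXTL3 and EMILIN2 were just inside among the higher genes, with 1.002 to 1.003 as the smaller of their 2 differences, and CHD2, PTPN9 and CRABP2 just outside at 0.99. Among the lower genes NUDCD2, CASP6 and ANAPC10 were just inside at -1.01, and HYLS1 at -0.999, SFT2D1 at -0.99 and UBE2C at -0.97 just outside.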

How the data were processed

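Values came from the FPKM table that the authors deposited, with 1 library for each of 23 conditions. Per the methods and the processing notes, the authors made cDNA by SMART-Seq v4, aligned reads to Sscrofa11.1 with HISAT2 2.0.4, counted them with HTSeq 0.9.1 against the Ensembl annotation and scaled them to FPKM. DESeq is also named in the submitters' processing notes. How the 8603 genes of the table were chosen among all genes is not given in the sources used here, so every count is a count within the table. Of these genes, 7371 had a symbol and 6921 a position in RefSeq Sscrofa11.1. 0 columns of values were left unmapped.

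Since FPKM steps in units of 1 fragment, the fragments behind each value were worked out, 100% of them within 0.01 of a whole number. Differences were taken on log2(FPKM + 1), a scale that understates changes of low genes, and a call needed a difference over 1 and FPKM of at least 1 in one library. Ratios of fragments carry 95% exact binomial (Clopper-Pearson) intervals, and a count of 0 was set at 3 fragments per library. Named genes were the 15 largest shared differences in each direction with a symbol and at least 5 FPKM in both clones or in the oocytes, ranked by the smaller of the 2 differences, and all members of 15 gene lists called in both. ZP3, GDF9, FN1, PDGFRA, HAS2, EREG and the genes near the limit were named in addition. The members and the lists were chosen with earlier results of these data known. The call rule and the intervals were tried on simulated counts with counting error only and with changes larger than the limit of the call. Variation between embryos was not part of that trial, so it says nothing of how far single calls can be trusted. The settings varied were the pseudocount (0.1), a minimum FPKM of 5 or none, both rescalings, IV-D-OC as the start and the counting interval. Sequences and overlaps came from RefSeq. Besides the overlaps given above, TMEM69 overlaps GPBP1L1, so these reads may be shared too. CALD1, CETN3, MED30, ARL15, SPARC, LGALS1, CDK1, WEE2 and ANAPC10 each overlap a locus with only a LOC number. GET1 had no RefSeq position to check. Intervals came from scipy 1.17.1, tables from pandas 2.3.3 with numpy 2.4.6 on python 3.11.15, and figures from matplotlib 3.10.9.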

Additional observations from a re-analysis of the deposited data

Results flagged for a closer look

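For 6 named genes both clone libraries were below the recipient oocytes while the in vivo 1-cell library was above its own oocytes by more than 1 on the log2(FPKM + 1) scale. The in vivo differences were 2.72 for RAB6A, 1.99 for IGFBP7, 1.46 for FLAD1, 1.37 for CLK1, 1.32 for MPG and 1.08 for HSCB. In the Duroc and Laiwu clones the same genes differed by -1.48 and -1.59, -2.14 and -1.98, -1.62 and -1.57, -1.57 and -1.58, -1.45 and -1.99, and -1.37 and -1.25. The difference between the groups was not tested, since each condition had 1 library. As genes chosen for a high value in the recipient oocytes, all 6 were also higher in the recipient than in the in vivo oocyte library, as for FLAD1 at 1446 against 575.4 FPKM.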

How the results depend on the processing

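Every call rests on 1 library per condition, and the oocyte library is shared by both comparisons. No paired analysis was possible because each group had 1 library, and for the same reason no replicate was left out. The intervals cover counting error only and say nothing of variation between embryos. The cause of the changes below was not tested.

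The 167 genes higher in both became 334 with a pseudocount of 0.1, 392 with each library rescaled to a sum of 1000000, 90 with median-ratio scaling and 1099 against IV-D-OC, and 167, 167, 90 and 135 of the original genes were among them. The 34 lower in both became 20, 103 and 60 with the rescaled sum, median-ratio scaling and IV-D-OC, with 19, 34 and 10 of the original genes. With a pseudocount of 0.1, 4 genes were called in opposite directions. For the Duroc clones the 502 higher became 924, 954, 211 and 2122 (pseudocount, rescaled sum, median-ratio, IV-D-OC), and the 110 lower became 273 with median-ratio scaling and 270 against IV-D-OC. For the Laiwu clones the 512 higher became 831, 1144, 280 and 1396, and the 86 lower became 155 with the pseudocount and 264 with median-ratio scaling. A minimum FPKM of 5, no minimum and the counting interval kept every one of these counts within 1.5 times, with 138 of the 167 and 26 of the 34 genes kept under the interval.

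The 15 largest higher genes stayed called under all 7 alternatives. Of the 18 fibroblast list genes 7 stayed with a minimum FPKM of 5, 16 with median-ratio scaling, 17 with the counting interval and 18 under the others. Of the 15 largest lower genes, 6 stayed against IV-D-OC, 14 with the rescaled sum, where MTX2 was lost, and 15 under the others. Against IV-D-OC the Duroc and Laiwu differences turned to 0.87 and 1.03 for IGFBP7, 0.67 and 0.12 for MPG, and 0.89 and 0.78 for RAB6A, and the Duroc difference of RPS29 to -0.13.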
